A study of Homo sapiens with 12 samples.

Results

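Chaperone genes of the heat shock protein, J protein and chaperonin families were followed in U937 cells treated with antibodies to the receptor LILRB3. Genes were taken by symbol from the count tables: the numbered HSPA and HSPB genes, the HSP90 genes, the DNAJA, DNAJB and DNAJC genes, CCT2 to CCT8, and HSPD1, HSPE1, HSPH1, TCP1, HSF1, STIP1, AHSA1, BAG3, CALR and CANX. Of 27827 named genes in either table, 95 were members after 7 pseudogenes that matched the pattern (CCT6P1, CCT6P3, DNAJA1P5, DNAJB3, HSP90AB4P, HSP90B2P and HSPA7) had been left out. By the textbook location of their proteins, 50 members were placed in the cytosol or nucleus, 16 in the endoplasmic reticulum (ER) and 8 in mitochondria. Another 14, HSF1 among them, were elsewhere or not assigned, and 7 were antisense or read-through transcripts whose symbols matched.

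Chaperones hold unfolded proteins in solution and use ATP to fold them. In the cytosol, J proteins (DNAJ) hand clients to Hsp70 (HSPA) and start its ATPase, Hsp110 proteins recharge it, Hsp90 takes on kinases and receptors, and the ring-shaped chaperonin TRiC (CCT) folds actin and tubulin. The ER and the mitochondria each hold their own Hsp70 and Hsp90 systems; heat shock factor HSF1 induces the cytosolic genes under stress, and the unfolded protein response induces the ER genes.

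U937 is a human pro-monocytic line, and LILRB3 restrains the activation of myeloid cells. All 4 groups were first given 50 ng/mL interferon gamma, the controls included, to raise LILRB3. The groups were a LILRB3 antagonist antibody and its own nonspecific IgG control (set 1), and a LILRB3 agonist antibody and its own IgG control (set 2), each with 3 libraries. The antibody dose is written as 5 mg/mL in the labels, and treatment lasted 72 hours. Separate cultures are not mentioned, so the p-values measure the spread between libraries, which may be technical.

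Set 1 libraries held 17053190 to 17790608 counts with the antagonist and 17155518 to 18833088 with IgG. The set 2 table listed only 904 genes, which appear to be selected, and its libraries held 3135972 to 3522203 listed counts with the agonist and 2764479 to 3321678 with IgG. Library 1 of the set 1 IgG group was unlike its replicates: a chi-square test on counts, divided by its degrees of freedom, gave 10.95 and 19.7 against them, and 4.50 for the remaining pair. Agonist library 1 likewise gave 24.9 and 26.6, and the remaining agonist pair 3.73. All 10 myeloid markers were detected (3457 to 3852 CPM summed in antagonist libraries and 3071 to 4132 in IgG libraries). Of the markers of other cells, T and NK genes summed to 2.64 to 2.87 CPM with the antagonist and 1.34 to 2.54 with IgG, with none of 4 at 0. B cell genes summed to 15.6 to 17.4 CPM with the antagonist and 14.9 to 17.2 with IgG, with 1 of 3 at 0 (MS4A1). Epithelial or fibroblast genes summed to 0.798 to 2.59 CPM with the antagonist and 1.12 to 2.10 with IgG, with 1 of 4 at 0 (EPCAM). The T and NK sums did not overlap between the groups. They were carried by NCAM1, with 226 counts over the 6 libraries, against 18 for CD2, 5 for CD3E and 3 for CD3D. CD3E and CD3D were at 0 in each library but antagonist library 3, and the NCAM1 counts overlapped, at 44, 45 and 39 with the antagonist and 35, 40 and 23 with IgG. The part of such cells in the results was not tested. In bulk RNA, fewer cells of a type and less RNA per cell cannot be told apart.

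Promoter sequences, from 250 bases before to 50 bases from the RefSeq start, were matched for 84 of the 95 members (RefSeq, GRCh38.p14). Among these, 4 promoters, or 4.76%, held a heat shock element of 3 units (GAA, TTC and GAA, each 2 bases apart, either strand), against 0.49% of all 35116 promoters. All 4 belonged to cytosolic members, namely DNAJA1, DNAJB6, HSPA6 and HSPA8. An ER stress response element (CCAAT and CCACG with 9 bases between them, either strand) was in 4 of 15 ER promoters, or 26.7%, against 0.0769% of all promoters. Its carriers were CALR, CANX, HSP90B1 and HSPA5. This element contains a CCAAT box, which alone was in 44% of member promoters and 34.6% of all. The match is of letters only and does not show that a factor was bound.

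Promoters of 2 cytosolic and 3 ER genes that carry an element are printed here, with the element in capitals, since these genes recur in the results. HSPA8 lies at chr11:123062087-123062386 on the minus strand and holds its element at bases 21 and 196 of the window. DNAJA1 lies at chr9:33025023-33025322 on the plus strand with the element at base 254, just past the start.
HSPA8: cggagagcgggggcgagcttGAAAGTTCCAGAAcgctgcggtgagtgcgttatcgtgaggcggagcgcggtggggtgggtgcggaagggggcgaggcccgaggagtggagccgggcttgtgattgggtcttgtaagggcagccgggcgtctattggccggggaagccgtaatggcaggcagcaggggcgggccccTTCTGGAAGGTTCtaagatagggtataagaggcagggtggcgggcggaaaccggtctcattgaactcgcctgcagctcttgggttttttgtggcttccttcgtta
DNAJA1: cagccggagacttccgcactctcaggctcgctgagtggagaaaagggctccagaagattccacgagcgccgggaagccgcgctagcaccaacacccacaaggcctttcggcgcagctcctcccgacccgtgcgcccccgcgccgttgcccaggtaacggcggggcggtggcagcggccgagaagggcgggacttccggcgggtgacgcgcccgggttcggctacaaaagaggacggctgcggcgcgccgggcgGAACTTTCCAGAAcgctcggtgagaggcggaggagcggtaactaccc
HSPA5 lies at chr9:125241294-125241593 on the minus strand, HSP90B1 at chr12:103930160-103930459 and CALR at chr19:12938359-12938658, both on the plus strand.
HSPA5: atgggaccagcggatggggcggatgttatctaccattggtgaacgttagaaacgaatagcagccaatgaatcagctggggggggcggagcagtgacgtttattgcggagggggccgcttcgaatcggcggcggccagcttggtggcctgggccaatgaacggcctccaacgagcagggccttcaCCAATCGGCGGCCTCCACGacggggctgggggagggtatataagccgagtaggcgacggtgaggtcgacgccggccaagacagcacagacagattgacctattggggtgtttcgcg
HSP90B1: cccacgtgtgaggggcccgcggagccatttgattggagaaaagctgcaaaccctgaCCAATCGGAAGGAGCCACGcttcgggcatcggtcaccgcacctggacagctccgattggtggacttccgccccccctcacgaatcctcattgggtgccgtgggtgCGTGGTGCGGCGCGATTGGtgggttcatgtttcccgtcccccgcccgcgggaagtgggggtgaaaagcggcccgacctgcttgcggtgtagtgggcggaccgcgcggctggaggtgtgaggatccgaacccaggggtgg
CALR: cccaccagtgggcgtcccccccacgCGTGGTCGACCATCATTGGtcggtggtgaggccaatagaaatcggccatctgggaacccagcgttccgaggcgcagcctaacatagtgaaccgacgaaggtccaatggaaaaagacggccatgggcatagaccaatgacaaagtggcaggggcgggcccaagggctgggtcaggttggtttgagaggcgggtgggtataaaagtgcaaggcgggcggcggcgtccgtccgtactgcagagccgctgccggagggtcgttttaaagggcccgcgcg
The ER element starts at base 185 in HSPA5, at bases 57 and 162 in HSP90B1 and at base 26 in CALR.

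The antagonist comparison asked how blocking LILRB3 changed the transcriptome. The chaperone transcripts that changed were nearly all lower with the antagonist than with IgG, in the cytosol, the ER and mitochondria alike. Among the 8 with the highest CPM, those that passed fell by 14.8% (CALR) to 30.5% (HSPA8). Of the 78 members that passed the filter on low counts (75 without antisense and read-through transcripts), 40 were lower and 2 were higher past an adjusted p of 0.05 by edgeR's quasi-likelihood test, and 36 did not pass. Across all 13778 genes tested, 20.5% were lower and 15.6% higher. The median log2 fold change of the tested members was -0.25, beside -0.01 over all genes. With library totals in place of TMM, 32 members were lower and 4 higher, and over all genes the shares were 11.6% lower and 21.9% higher, so that 65.4% of calls were rises, against 43.1% with TMM. Without IgG library 1, 37 were lower and 2 higher.

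The remaining 17 members stayed below the filter, and 6 of them had no count at all in set 1. The highest of the 17, DNAJC28, had 65 counts summed over the 6 libraries. Low or absent members included most small heat shock genes (HSPB2, HSPB3, HSPB7, HSPB8 and HSPB9), HSPA12A and HSPA1L, and J genes such as DNAJB7 and DNAJB8. Among the antisense and read-through members, 3 of 7 were tested and none was called by edgeR, by DESeq2 or at an unadjusted p under 0.05.

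Among cytosolic and nuclear members, 25 of 42 tested genes were lower and 1 was higher, with a median log2 fold change of -0.26. In the ER, 9 of 16 were lower and none higher, with a median of -0.24. None was higher there by DESeq2 (9 lower) or at an unadjusted p under 0.05 either (10 lower). In mitochondria, 5 of 8 were lower and 1 higher, with a median of -0.35. With length and GC trends removed, the medians were -0.21 in cytosol and nucleus, -0.18 in the ER and -0.21 in mitochondria. Among members elsewhere, 1 of 9 was lower, against 20.5% of all genes tested. This was DNAJC24, which serves diphthamide synthesis, and its call was lost under 7 of the 11 alternatives, DESeq2 (adjusted p = 0.0704) and length and GC trends removed (log2 fold change -0.19, adjusted p = 0.384) among them. No test of a difference between compartments was made, and the order of their medians changed with level, as given below.

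**Figure D1:**
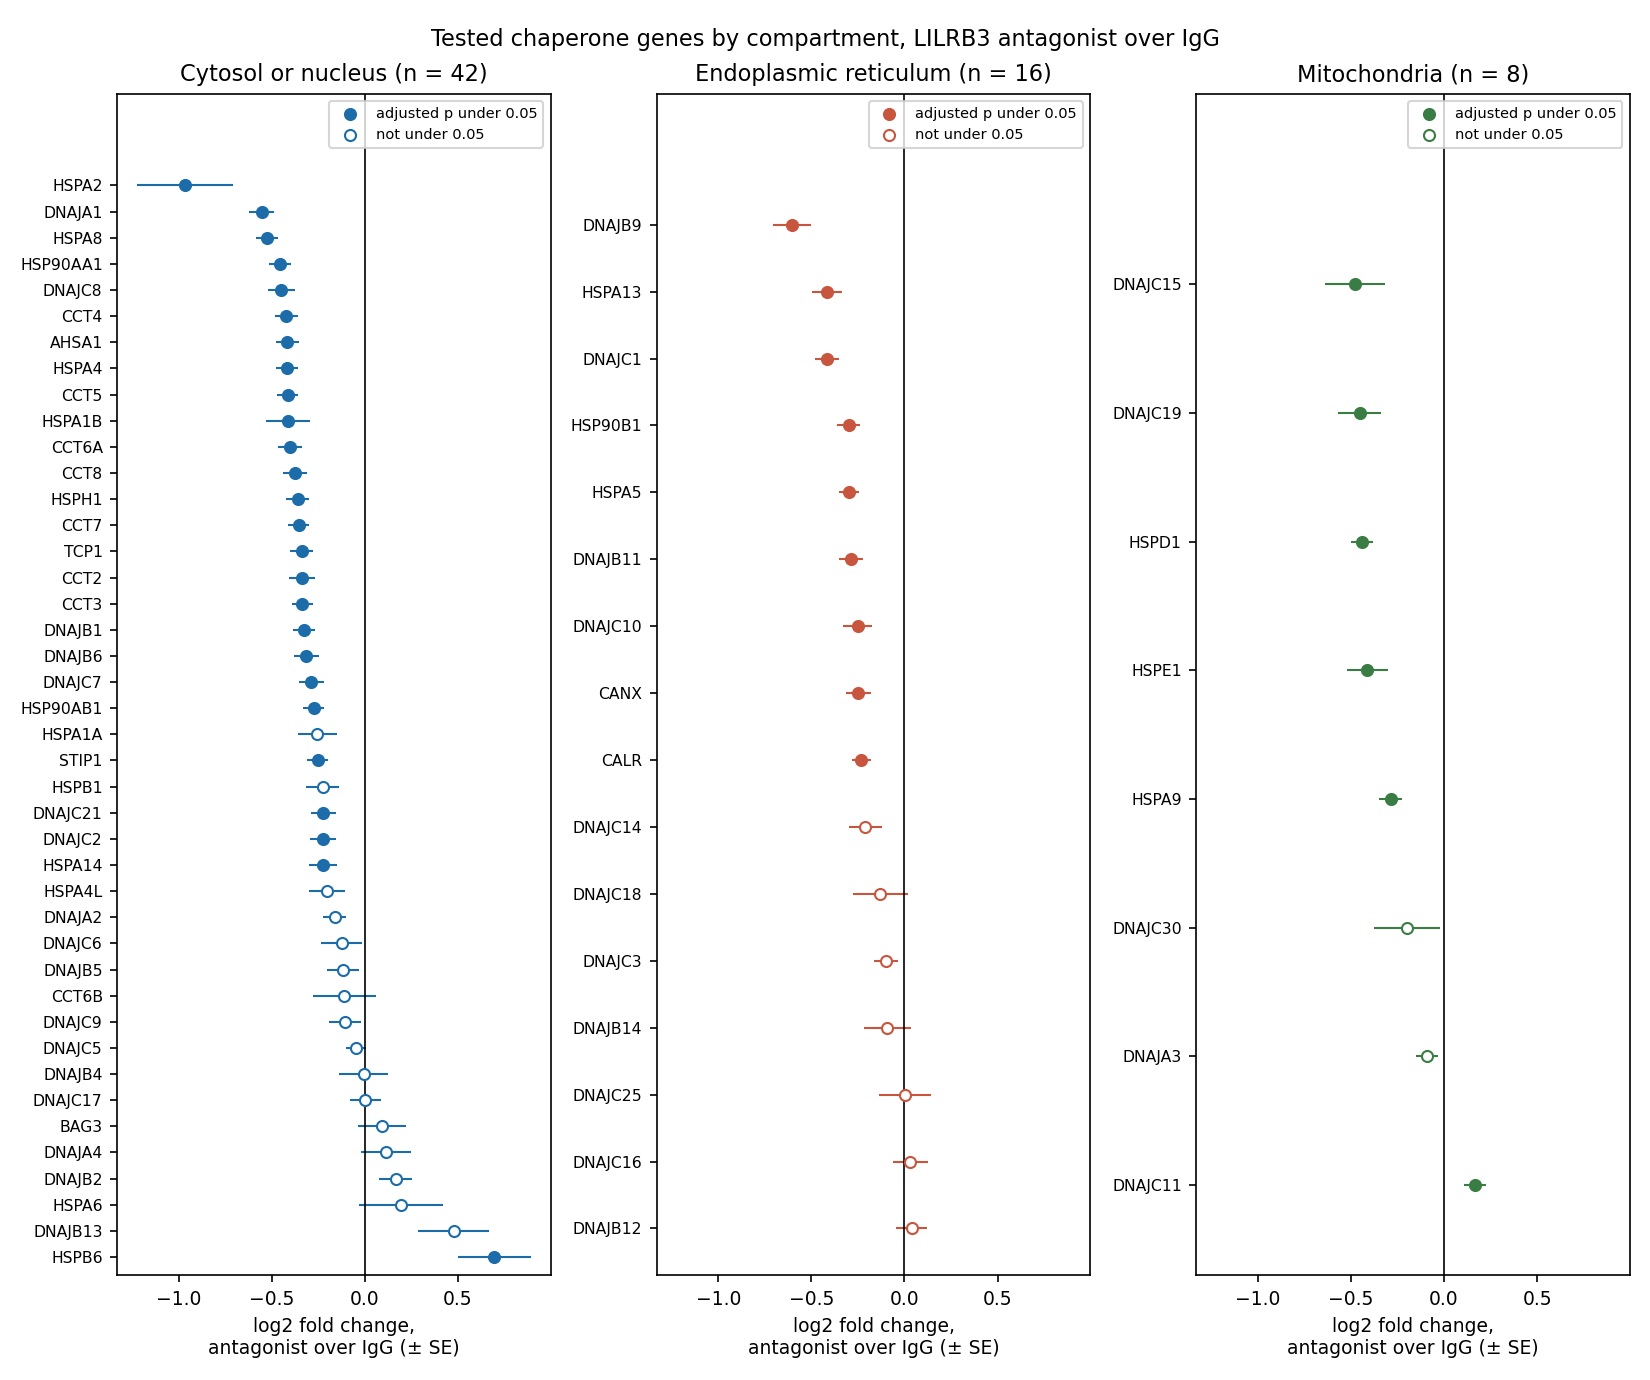
Log2 fold change of each tested chaperone gene, antagonist over IgG, with its standard error (bars), in the cytosol or nucleus (42 genes), the ER (16) and mitochondria (8). Filled points passed an adjusted p of 0.05 and open points did not. Most points lie left of 0, and filled points right of 0 are HSPB6 and DNAJC11.

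Calls were also counted by level. Of 35 members (antisense and read-through transcripts left out) with a mean of at least 50 CPM, 28 were lower and 1 higher, against 34.6% lower and 19.3% higher among all 4526 genes at that level. By compartment the lower ones were 19 of 21 cytosolic, 7 of 8 ER and 2 of 4 mitochondrial members. The median log2 fold changes of these compartments were -0.36, -0.27 and -0.19 at this level, and -0.12, -0.11 and -0.43 below 50 CPM. Below 50 CPM, 12 of 40 members were lower, and 1 was higher, against 13.7% lower and 13.8% higher among all genes at that level. Per kilobase of the longest annotated transcript, the most abundant in IgG libraries were CALR at 1373 CPM, HSP90AB1 at 1187 CPM, HSPB1 at 376 CPM and HSPA5 at 247 CPM. By the longest annotated transcript of each gene, tested members had a median length of 2743 bases and 45.8% GC, against 3265.5 bases and 49.8% for all genes tested. With trends on length and GC removed, 39 members were lower and 2 higher, and their median was -0.20. Among genes described below that still passed, that setting moved the log2 fold change to -0.20 for CCT8, -0.26 for DNAJC8, -0.22 for HSPA13, -0.17 for HSP90B1, -0.14 for CANX and -0.49 for DNAJB6. With library totals, CALR passed at -0.15.

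**Figure D2:**
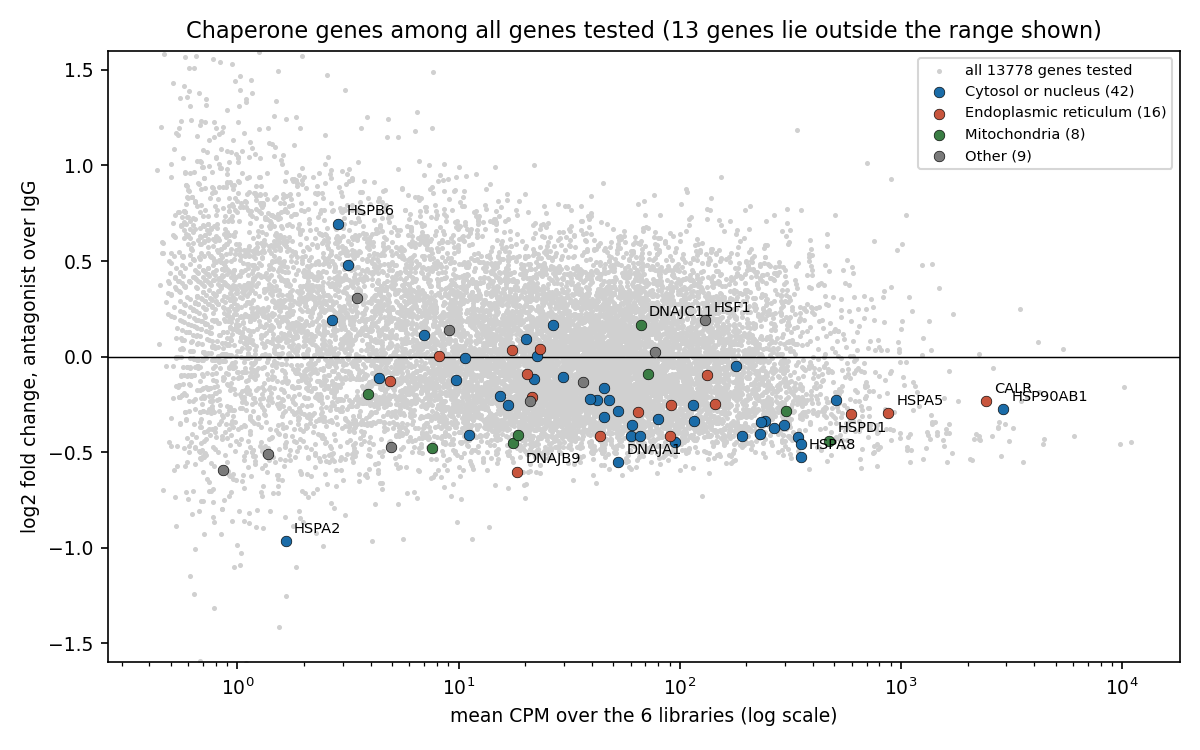
Log2 fold change, antagonist over IgG, against mean CPM over 6 libraries (log scale) for all 13778 genes tested (grey) and for tested chaperone genes coloured by compartment; 13 genes lie outside the plotted range. Members above 50 CPM sit mostly below 0, and the lowest member is HSPA2.

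All 3 Hsp90 genes were lower. HSP90AB1, the constitutive cytosolic Hsp90 (chromosome 6, 44246194 to 44253883, GRCh38.p14), had 2531, 2728 and 2614 CPM in antagonist libraries, against 3182, 3041 and 3300 CPM in IgG libraries. The groups did not overlap, and HSP90AB1 was lower by 17.3% (log2 fold change -0.27, SE 0.06, adjusted p = 0.00303). Of all genes tested, 27.1% were lower and 21.9% higher without overlap. Among the 4526 genes of at least 50 CPM, 1866 were lower and 1090 higher without overlap. HSP90AA1, the stress-inducible cytosolic form, had 294, 304 and 292 CPM with the antagonist and 428, 386 and 408 CPM with IgG. It was lower by 27.2% (log2 fold change -0.46, SE 0.06, adjusted p = 0.000288). The ratio of HSP90AA1 to HSP90AB1 CPM was 0.116, 0.111 and 0.112 with the antagonist and 0.135, 0.127 and 0.124 with IgG, without overlap. An exact two-sided permutation test gave p = 0.1, the smallest that 3 against 3 libraries allow.

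Of 9 tested cytosolic Hsp70 genes, 6 were lower and none higher. HSPA8, the constitutive Hsp70 that also strips clathrin from vesicles (chromosome 11, 123057489 to 123062462), had 272, 301 and 294 CPM in antagonist libraries and 424, 399.8 and 424 CPM in IgG libraries. It was lower by 30.5% in groups that did not overlap (log2 fold change -0.52, SE 0.06, adjusted p = 0.000194). Of its exchange factors of the Hsp110 family, HSPA4 and HSPH1 fell as well. Their relative HSPA4L did not pass (log2 fold change -0.20, adjusted p = 0.122), although its groups did not overlap. HSPA4 had 56.9, 57.8 and 56.1 CPM, against 78.5, 75.6 and 73.8 CPM with IgG (log2 fold change -0.42). HSPH1 averaged 53.4 ± 1.95 CPM with the antagonist and 68.5 ± 0.849 CPM with IgG (SD, n = 3 each, log2 fold change -0.36). HSPA2, the testis-enriched Hsp70, had the largest fall of all members at a low level. It had 1.14, 0.827 and 1.38 CPM with the antagonist, against 1.99, 2.31 and 2.27 CPM with IgG (log2 fold change -0.97, SE 0.26, adjusted p = 0.0120). HSPA14, the ribosome-associated Hsp70, was lower by 14.4%, but its call ended under 7 of the 11 alternatives run, with adjusted p up to 0.185.

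The stress-induced Hsp70 genes had low CPM. HSPA1A had 17.2, 15.1 and 13.7 CPM in antagonist libraries and 17.0, 19.5 and 18.4 CPM in IgG libraries, which overlapped (log2 fold change -0.25, adjusted p = 0.0757). It passed without IgG library 1 (adjusted p = 0.0413) and with length and GC trends removed (adjusted p = 0.0115). HSPA1B had 10.5, 9.87 and 8.32 CPM, against 13.2, 13.1 and 11.8 CPM with IgG, and was lower (log2 fold change -0.41, adjusted p = 0.0163). That call ended without antagonist library 3 (adjusted p = 0.0822), without IgG library 2 (0.0672) and with library totals (0.0512). These genes share 72.6% and 73.5% of their 50-base windows with other genes, chiefly with each other. How reads that match several genes were counted is unknown here, so both the split between them and their level are uncertain. HSP90AB1, HSP90AA1 and HSPA8 share 18.8%, 17.5% and 15.4% of their windows with other genes, so this limit touches their levels too. HSPA6, which is strictly stress-induced, had 2.91, 2.65 and 3.03 CPM with the antagonist and 2.69, 3.08 and 1.71 CPM with IgG, with overlap (log2 fold change 0.19, SE 0.23, adjusted p = 0.535). HSPA6 shares 45.5% of its windows with its left-out copy HSPA7, which had 22.1, 18.3 and 20.2 CPM, against 9.79, 13.2 and 14.1 CPM with IgG (log2 fold change 0.71, adjusted p = 0.00152). How reads were divided between HSPA6 and HSPA7 was not tested. The ratio of HSPA1A to HSPA8 overlapped between the groups (exact permutation p = 0.2).

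**Figure D3:**
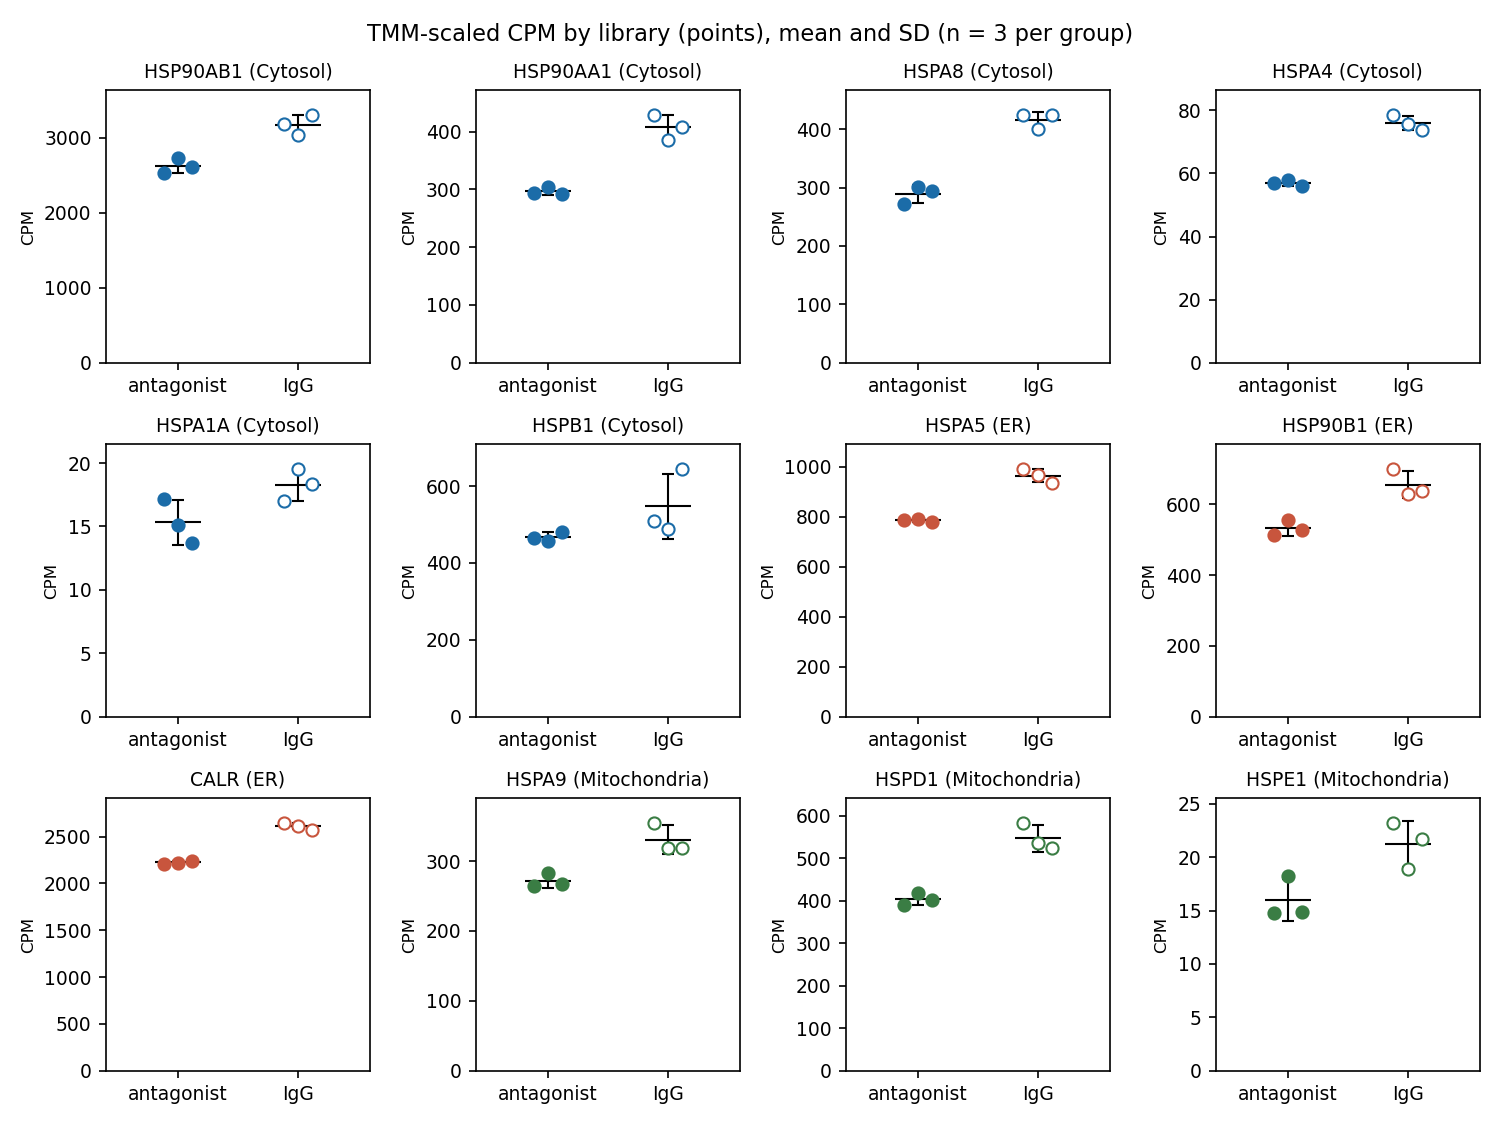
TMM-scaled CPM of 12 chaperone genes in each library (points), with mean and SD (n = 3 per group), antagonist left and IgG right; each axis starts at 0. The groups overlap for HSPA1A, and for the other 11 genes every antagonist library is below every IgG library.

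J proteins, which select the clients of Hsp70, were mixed. Of 4 DNAJA genes 1 was lower (25%), of 10 tested DNAJB genes 4 (40%), and of 25 tested DNAJC genes 9 (36%), with DNAJC11 the single one higher. Across all genes tested, 20.5% were lower and 15.6% higher, so the DNAJA share was near that of all genes. DNAJA1, a main partner of cytosolic Hsp70 (chromosome 9, 33025273 to 33039907), had 44.3, 43.2 and 40.4 CPM in antagonist libraries, against 65.0, 62.1 and 60.8 CPM in IgG libraries. It was lower by 31.9% in groups that did not overlap (log2 fold change -0.55, SE 0.07, adjusted p = 0.000204). DNAJB1, the classic Hsp40, had 67.8, 72.3 and 71.3 CPM, against 88.0, 85.9 and 91.0 CPM with IgG (log2 fold change -0.33, adjusted p = 0.00151). DNAJB6, which holds back aggregation, averaged 40.7 ± 2.29 CPM with the antagonist and 50.6 ± 0.308 CPM with IgG (SD, n = 3 each; log2 fold change -0.31). DNAJC8, which is linked to splicing, was lower at 76.9, 84.8 and 80.9 CPM, against 121, 105 and 105 CPM with IgG (log2 fold change -0.45). DNAJC7, which binds both Hsp70 and Hsp90, was lower by 18.05%.

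Other J genes did not pass, or lost their calls under several alternatives. DNAJA2, close to DNAJA1 in role, averaged 42.9 ± 0.731 CPM with the antagonist and 48.0 ± 0.554 CPM with IgG (SD, n = 3 each; log2 fold change -0.16, adjusted p = 0.0587), although its groups did not overlap. DNAJA4 had a log2 fold change of 0.11 (adjusted p = 0.536). DNAJC5, the cysteine string protein of vesicles, averaged 177 ± 4.71 CPM with the antagonist and 183 ± 3.46 CPM with IgG, with overlap (log2 fold change -0.05, adjusted p = 0.524); it passed as lower with length and GC trends removed (adjusted p = 0.00284). DNAJC2 and DNAJC21, both tied to ribosomes, were each lower by 14.4%, and their calls ended under 8 and 6 of the 11 alternatives.

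The 8 subunit genes of TRiC were all lower, by similar amounts in the main fit. Their log2 fold changes ran from -0.42 for CCT4 to -0.34 for CCT3, with a median of -0.37 and an SD across subunits of 0.0357, which is below the SE of each subunit. That SE covers the spread between libraries, and whether the falls were equal was not tested. With length and GC trends removed, CCT8 was at -0.20, while CCT4 and CCT5 stayed at or below -0.30 and -0.33 in every alternative. CCT4 (chromosome 2, 61868085 to 61888671) had 285, 307 and 288 CPM in antagonist libraries, against 413, 384 and 382 CPM in IgG libraries (adjusted p = 0.000442). CCT3 had 208, 218 and 215 CPM with the antagonist and 275, 265 and 269 CPM with IgG (adjusted p = 0.000875). CCT7 and CCT8 were lower by 21.9% and 22.9%. For each of the 8, every antagonist library was below every IgG library, a pattern that 27.1% of all genes showed in this direction. Among genes of at least 50 CPM, as all 8 were, 1866 of 4526 showed it. The subunits took 0.166%, 0.179% and 0.169% of counts with the antagonist, against 0.223%, 0.207% and 0.202% with IgG. CCT5 shares 43.6% of its exon bases with an antisense gene, and whether strand was used in counting is unknown here. CCT6B, a testis-enriched variant subunit, was low and did not pass (log2 fold change -0.11, adjusted p = 0.644).

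**Figure D4:**
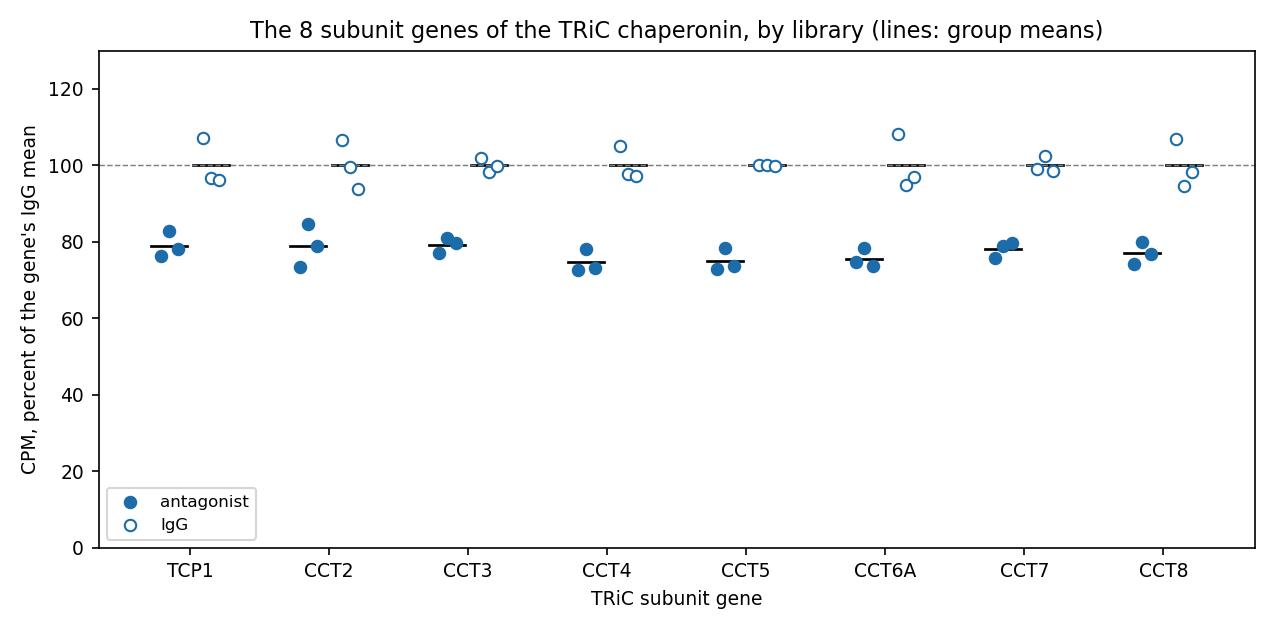
CPM of the 8 TRiC subunit genes in each library, as a percentage of the gene's mean in IgG libraries (points; lines are group means), antagonist left and IgG right of each pair. Antagonist libraries are below IgG libraries for every subunit.

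Hsp90 and Hsp70 co-chaperones followed in part. AHSA1, which starts the ATPase of Hsp90, had 51.0, 51.9 and 52.2 CPM in antagonist libraries, against 72.3, 67.2 and 67.5 CPM in IgG libraries (log2 fold change -0.42, SE 0.06, adjusted p = 0.000522). STIP1, which links Hsp70 to Hsp90, had 104, 106 and 104 CPM, against 127, 123 and 123 CPM with IgG (log2 fold change -0.25, adjusted p = 0.00349). Neither gene's groups overlapped. BAG3, an Hsp70 exchange factor of selective autophagy, had 21.5, 21.0 and 19.8 CPM with the antagonist and 15.2, 20.2 and 23.3 CPM with IgG, with overlap (log2 fold change 0.09, adjusted p = 0.612). HSF1, the regulator, had 144, 126 and 145 CPM with the antagonist and 105, 127 and 132 CPM with IgG, which overlapped. Its log2 fold change was 0.19 (SE 0.09, adjusted p = 0.105). HSF1 passed as higher with library totals (adjusted p = 0.0200), without the filter on low counts (0.0340) and without IgG library 3 (0.0298). Its log2 fold change was 0.12 without IgG library 1 (adjusted p = 0.116) and 0.085 with length and GC trends removed (0.133), and neither passed.

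Among small heat shock genes, which bind unfolded clients without ATP, 3 were tested. HSPB1, or Hsp27, had 465, 458 and 481 CPM in antagonist libraries, against 510.0, 489 and 644 CPM in IgG libraries. The groups did not overlap, but the IgG libraries were widely spread and the gene did not pass (log2 fold change -0.23, adjusted p = 0.0671). HSPB1 passed as lower without IgG library 2 (adjusted p = 0.0327), without the filter on low counts (0.00207) and with length and GC trends removed (0.0249). Without IgG library 3, the highest, its log2 fold change was -0.087 (adjusted p = 0.321), and with library totals -0.14 (0.190). HSPB6, or Hsp20, was higher at 3.54, 3.69 and 3.31 CPM, against 1.77, 2.55 and 2.20 CPM with IgG (log2 fold change 0.70, SE 0.20, adjusted p = 0.0156). That call ended without antagonist library 1 (adjusted p = 0.0545) or library 2 (0.0508), and 38.2% of the gene's exon bases overlap an antisense gene. HSPB11, an intraflagellar transport protein listed as IFT25 by RefSeq, averaged 19.4 ± 2.15 CPM with the antagonist and 22.7 ± 3.72 CPM with IgG (SD, n = 3 each), with overlap (adjusted p = 0.145).

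In the ER, the main folding machines fell by similar amounts. HSPA5, or BiP, the ER Hsp70 (chromosome 9, 125234853 to 125241343), had 787, 790 and 777 CPM in antagonist libraries, against 990, 966 and 936 CPM in IgG libraries. It was lower by 18.6% in groups that did not overlap (log2 fold change -0.30, SE 0.05, adjusted p = 0.00149). HSP90B1, or GRP94, had 514, 556 and 527 CPM with the antagonist and 699, 629 and 637 CPM with IgG (log2 fold change -0.30, SE 0.06, adjusted p = 0.00299). The lectin CALR, which holds glycoproteins in the folding cycle, had 2211, 2219.9 and 2242 CPM, against 2643, 2618 and 2575 CPM with IgG (log2 fold change -0.23, adjusted p = 0.00437). The libraries of each group lay close together for CALR. Its membrane-bound relative CANX had 132, 141 and 125 CPM, against 168, 158 and 147 CPM with IgG, and also passed (log2 fold change -0.25, adjusted p = 0.0139). The CANX call ended without antagonist library 1 (adjusted p = 0.0630) or library 3 (0.0858), without IgG library 2 (0.0647) and with library totals (0.0963). All 4 carriers of the ER stress response element described above were lower. Of the 63 tested members with a matched promoter but without it, 32 were lower (antisense and read-through transcripts left out). All 4 carriers averaged at least 50 CPM, a level at which 28 of 35 members were lower, against 12 of 40 below it. Of the carriers of the 3-unit heat shock element, 3 of 4 were lower, against 33 of 63 without it. That match is strict, and HSPA1A, HSPA1B and HSPB1 lack it but hold 2 units. With GAA then TTC, 2 bases apart, 5 of 9 tested carriers were lower, against 31 of 58 without. With TTC then GAA, 6 of 9 were lower, against 30 of 58 without. Of all genes tested, 20.5% were lower. These counts were not tested against each other.

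Of the ER J genes, 2 of 4 DNAJB and 2 of 7 DNAJC genes were lower and none was higher. Across all genes tested, 20.5% were lower. The largest fall among the ER J genes was in DNAJB9, or ERdj4, an inhibitor of the stress sensor IRE1. DNAJB9 had 14.5, 15.8 and 13.7 CPM in antagonist libraries, against 24.8, 21.1 and 20.8 CPM in IgG libraries. It was lower by 34.2% in groups that did not overlap (log2 fold change -0.60, SE 0.10, adjusted p = 0.000970). DNAJB11, the ERdj3 partner of BiP, had 59.8, 55.1 and 59.6 CPM, against 73.0, 71.0 and 68.9 CPM with IgG (log2 fold change -0.29). HSPA13, an Hsp70 of microsomes, had 35.7, 39.7 and 36.6 CPM, against 55.6, 46.3 and 47.4 CPM with IgG (log2 fold change -0.42, adjusted p = 0.00240). DNAJC1, which sits near the ribosome at the ER membrane, was lower by 25.1%. The reductase DNAJC10 was lower by 16.0%, but its call ended under 5 of the 11 alternatives, with adjusted p up to 0.129 on leaving out antagonist library 3. DNAJC3, an inhibitor of the kinase PERK, averaged 129 ± 4.65 CPM with the antagonist and 138 ± 9.55 CPM with IgG, with overlap, and did not pass (log2 fold change -0.10, adjusted p = 0.257). Nor did DNAJB12, DNAJB14, DNAJC14, DNAJC16, DNAJC18 and DNAJC25 pass (log2 fold changes 0.04, -0.09, -0.21, 0.03, -0.13 and 0.0028). DNAJC14 passed as lower with length and GC trends removed (adjusted p = 0.0289).

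In mitochondria, the chaperonin pair was lower. HSPD1, or Hsp60 (chromosome 2, 197486584 to 197500274), had 390, 417 and 402 CPM in antagonist libraries, against 582, 535 and 523 CPM in IgG libraries. It was lower by 26.3% in groups that did not overlap (log2 fold change -0.44, SE 0.06, adjusted p = 0.000391). HSPE1, its Hsp10 lid, encoded head to head with HSPD1, had 14.8, 18.3 and 14.9 CPM, against 23.2, 18.9 and 21.7 CPM with IgG (log2 fold change -0.41, SE 0.11, adjusted p = 0.0118). The HSPE1 call ended without antagonist library 1 (adjusted p = 0.0663) or library 3 (0.0605) and with length and GC trends removed (0.0908). HSPD1 and HSPE1 share 24.8% and 27.2% of their windows with other genes, among them the read-through HSPE1-MOB4 and processed copies. HSPA9, or mortalin, the mitochondrial Hsp70, had 264, 283 and 268 CPM, against 354, 319 and 319 CPM with IgG (log2 fold change -0.29, adjusted p = 0.00400). The ratio of HSPD1 to HSPA9 was 1.48, 1.48 and 1.50 with the antagonist and 1.64, 1.68 and 1.64 with IgG (exact permutation p = 0.1, the smallest possible).

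J proteins of the mitochondrial import motor were lower too. DNAJC19 had 15.3, 14.1 and 15.2 CPM in antagonist libraries, against 24.0, 18.9 and 18.0 CPM in IgG libraries (log2 fold change -0.45, adjusted p = 0.00887). With length and GC trends removed, DNAJC19 did not pass (log2 fold change -0.15, adjusted p = 0.221). Its relative DNAJC15 had 5.20, 7.17 and 6.72 CPM, against 10.5, 8.42 and 7.59 CPM with IgG (log2 fold change -0.48, SE 0.16, adjusted p = 0.0345), and its call ended under 5 of the 11 alternatives. Without IgG library 1 the log2 fold change of DNAJC15 was -0.30 (adjusted p = 0.139), and without antagonist library 1 the adjusted p was 0.150. DNAJC11, which works with the complex that shapes the inner membrane folds, was the one mitochondrial member that was higher. It had 69.1, 71.5 and 70.4 CPM, against 62.8, 62.5 and 62.6 CPM with IgG (log2 fold change 0.17, SE 0.06, adjusted p = 0.0394). The groups did not overlap, but the call held under 3 of the 11 alternatives only. DNAJA3, the main mitochondrial J protein, averaged 69.2 ± 2.63 CPM with the antagonist and 73.8 ± 1.37 CPM with IgG (SD, n = 3 each) and did not pass (adjusted p = 0.249).

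Summed over all members, chaperone transcripts took 1.18%, 1.24% and 1.20% of counts in antagonist libraries, against 1.45%, 1.36% and 1.37% in IgG libraries, without overlap. The ratios between compartments were closer. Cytosolic over ER counts were 1.51, 1.57 and 1.55 with the antagonist and 1.59, 1.56 and 1.68 with IgG, which overlapped. Cytosolic over mitochondrial counts overlapped as well, at 7.51 to 7.55 with the antagonist and 7.16 to 7.91 with IgG. ER over mitochondrial counts were 4.79 to 4.99 with the antagonist and 4.51 to 4.74 with IgG and did not overlap. Single abundant genes weigh heavily in these sums, chiefly HSP90AB1 in the cytosol (mean 2899 CPM) and CALR in the ER (mean 2418 CPM). Within single pairs, HSPA8 over HSPA5 was 0.346, 0.380 and 0.379 with the antagonist, against 0.428, 0.414 and 0.453 with IgG, without overlap (exact permutation p = 0.1; 4 ratios were tested, none able to go below this value).

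Other folding genes were read from a list of 56 co-chaperones, prefoldin subunits, ER folding enzymes and mitochondrial factors. Of these, 35 were lower and none was higher, with a median log2 fold change of -0.26, beside the 20.5% lower of all genes. At an unadjusted p under 0.05, 39 were lower and none higher, and DESeq2 called 31 lower and none higher. With library totals, 22 were lower, against 11.6% of all genes, and leaving out 1 library gave 24 to 35. The list was not split by level, and among all genes of at least 50 CPM, 34.6% were lower. By list, 7 of 8 prefoldin genes and TRiC partners were lower, 11 of 19 co-chaperones, 11 of 18 ER folding genes and 6 of 11 mitochondrial genes. The members named next were chosen after their values were seen. Prefoldin subunit VBP1, which delivers actin and tubulin to TRiC, had a log2 fold change of -0.40, the Hsp90 co-chaperone PTGES3 (p23) -0.42 and HSBP1, which binds HSF1, -0.40. PPIB, an ER prolyl isomerase, was at -0.38, and GRPEL1, the exchange factor of HSPA9, at -0.46. CDC37, which brings kinases to Hsp90, and the ER exchange factor HYOU1 were at -0.0071 and -0.015 (adjusted p = 0.935 and 0.873) and did not pass.

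The agonist comparison could be read for only 11 members, those among the 904 listed genes. Because 99.9% of listed genes were called in one direction or the other (44.2% lower and 55.6% higher), calls describe the list and are not independent evidence, and the zero point of its fold changes is uncertain. Of the 11 members, 9 were lower with the agonist and 2 higher. Cytosolic or nuclear members made up 10 of them, HSPA13 was the single ER member and none was mitochondrial. Values below are CPM of the listed counts and are not on the scale of set 1.

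HSP90AB1 had 7417, 7504 and 7699 CPM in agonist libraries, against 9172, 8814 and 8988 CPM in IgG libraries (log2 fold change -0.25, SE 0.04, adjusted p = 0.000419). HSPA8 had 1794, 1856 and 1787 CPM, against 2283, 2143 and 2163 CPM with IgG (log2 fold change -0.28, SE 0.05, adjusted p = 0.000528). STIP1 had 1169, 1089 and 1157 CPM, against 1531, 1475 and 1511 CPM with IgG (log2 fold change -0.40). None of these groups overlapped, as was so for 44.1% of listed genes in the lower and 53.4% in the higher direction. HSPA4, HSPH1 and HSPA13 had log2 fold changes of -0.40, -0.37 and -0.41, and CCT3, the one listed TRiC subunit, -0.29. DNAJB4, an Hsp40 relative of DNAJB1, had 21.3, 29.1 and 16.5 CPM with the agonist, against 58.0, 37.6 and 36.8 CPM with IgG, and the largest log2 fold change at -0.99 (SE 0.24, adjusted p = 0.00213). DNAJC6, or auxilin, which uncoats clathrin vesicles with HSPA8, had 26.9, 27.2 and 38.7 CPM, against 43.2, 57.6 and 54.4 CPM with IgG (log2 fold change -0.74, SE 0.19). Both genes were spread widely but did not overlap between groups.

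The 2 listed rises were DNAJC17 and DNAJB2. DNAJC17, which is linked to splicing, had 141, 116 and 137 CPM in agonist libraries, against 100.2, 89.1 and 105 CPM in IgG libraries (log2 fold change 0.42, adjusted p = 0.00462). DNAJB2, a ubiquitin-binding J protein, had 358, 328 and 333 CPM, against 284, 308 and 277 CPM with IgG (log2 fold change 0.23, adjusted p = 0.0134). DNAJB2 did not pass with DESeq2 (adjusted p = 0.138) or without IgG library 3 of set 2 (adjusted p = 0.0540). DNAJC17 shares 22.8% of its exon bases with a gene on the opposite strand (GCHFR). The left-out copy HSPA7 was also listed, at a log2 fold change of 0.39 (adjusted p = 0.000957).

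The antibodies were set against each other by the interaction of set and treatment over 902 shared genes, of which 56.5% differed past an adjusted p of 0.05 (29.7% below and 26.8% above zero for antagonist minus agonist). The listed genes appear to be selected, with 99.9% called for the agonist, and this test reuses those agonist values. A difference is thus favoured in advance for listed genes with a small antagonist effect, and the calls are descriptive. Among the 11 members, 4 differed. HSPA8 was lower by more with the antagonist (log2 fold change -0.52) than with the agonist (-0.28), a difference of -0.25 (SE 0.07, adjusted p = 0.00918). DNAJB4 averaged 10.7 ± 1.44 CPM with the antagonist and 10.7 ± 1.18 CPM with its IgG (log2 fold change -0.01), and its difference from the agonist effect was 0.99 (SE 0.29, adjusted p = 0.00801). DNAJC6 differed by 0.61 (SE 0.22, adjusted p = 0.0266) and DNAJC17 by -0.42 (SE 0.15, adjusted p = 0.0222). For HSP90AB1, HSPA4, HSPA13, HSPH1, CCT3 and DNAJB2 the differences lay between -0.06 and 0.01, with SEs of 0.07 to 0.12. STIP1 differed by 0.15 (SE 0.07, adjusted p = 0.0810). With library totals, HSPA8 (adjusted p = 0.104) and DNAJC17 (0.0633) no longer passed and STIP1 did (0.00936).

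Leaving out 1 library also ended calls on these differences. DNAJC17 no longer passed without IgG library 3 or antagonist library 2 of set 1, or without IgG library 2 or agonist library 1 of set 2 (adjusted p from 0.0533 to 0.0572). DNAJC6 no longer passed without IgG library 2 or antagonist library 1 of set 1, without IgG library 2 or 3 of set 2, or without agonist library 1 or 2 (adjusted p from 0.0530 to 0.0712). STIP1 passed without IgG library 1 of set 1 (0.0311) or agonist library 1 (0.0270). DNAJB4 and HSPA8 passed on leaving out any single library.

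**Figure D5:**
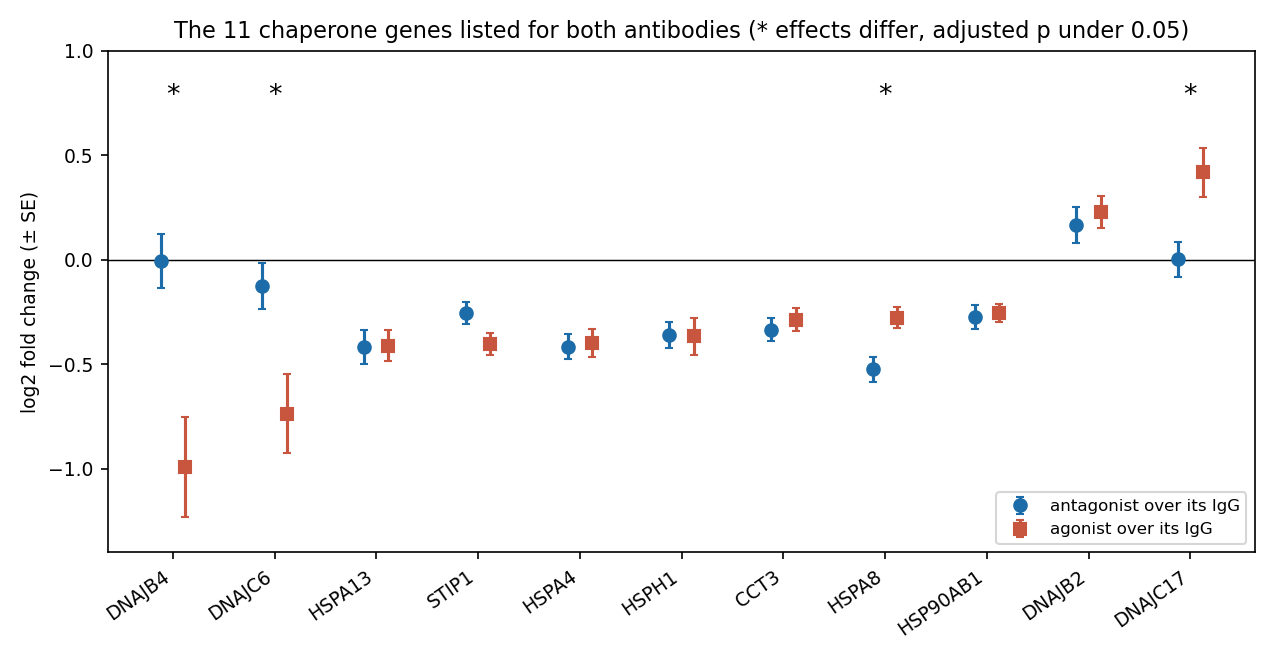
Log2 fold change with SE of the 11 chaperone genes listed for both antibodies, antagonist over its IgG (circles) and agonist over its IgG (squares). A star marks DNAJB4, DNAJC6, HSPA8 and DNAJC17, whose effects differed past an adjusted p of 0.05.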

How the data were processed

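RNA was measured in 12 libraries of 4 groups. The authors deposited whole-number counts per gene, without normalization, in 1 table per set. The submitters' processing notes name HISAT2, Cufflinks and hg38 without roles; the sources used here give no versions, counting program, annotation or strand use. Columns carry the group but no replicate number, so libraries are numbered by column order, which pairs nothing. In set 1, 570 of 28395 rows had no gene name (0.0981% to 0.105% of antagonist and 0.0678% to 0.0767% of IgG counts) and were left out.

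Counts were fitted with edgeR 4.0.16 (R 4.3.3, limma 3.58.1) by the robust quasi-likelihood test on genes passing filterByExpr, scaled by TMM, within each set, with Benjamini-Hochberg adjustment over all genes tested at 0.05; the set 2 table was not filtered. CPM values are TMM-scaled. The scripts were tested on simulated data. Alternatives were DESeq2 1.42.0, library totals, no filter, no robust fit, removal of trends on length and GC, and leaving out each library. Exon overlap, length, GC and 50-base windows shared with other genes came from GENCODE 29, and gene positions from RefSeq. Length, GC and windows were those of the longest transcript of each gene, retained introns left out. Whether U937 cells express that transcript was not tested.

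Named were, per family, up to 4 tested members with the highest mean CPM, every rise, the 5 largest separated falls, every member listed in set 2, and HSPA6, HSPA1A and HSPA1B; other members are given by role, chosen after their values were seen. The members, compartments and lists were chosen with earlier results of these data known. No test was made over a list. The erythroid marker list is not reported here. Counts of 17053190 to 18833088 per set 1 library set the precision, and low genes such as HSPA2 rest on few reads.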

Additional observations from a re-analysis of the deposited data

Results flagged for a closer look

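Of the 11 chaperone genes listed for both antibodies, 4 were singled out because the test of the difference between the antagonist effect and the agonist effect passed an adjusted p of 0.05 (edgeR, interaction of set and treatment). The difference, antagonist minus agonist on the log2 scale, was 0.99 for DNAJB4, 0.61 for DNAJC6, -0.25 for HSPA8 and -0.42 for DNAJC17. The zero point of the agonist fold changes is uncertain, and its part in these differences was not tested. The listed genes also appear to be selected on these libraries, which favours a difference where the antagonist effect is small.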

How the results depend on the processing

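Across the 11 alternatives to the antagonist fit, 30 of 40 lower calls and 0 of 2 higher calls among chaperone genes held in each. Leaving out 1 library gave 0 to 2 members higher in all, 0 to 1 cytosolic members higher, 3 to 5 mitochondrial members lower and 0 to 1 higher; lower members numbered 32 to 38. Members higher numbered 4 with library totals (2 of them cytosolic) and 1 with DESeq2. With length and GC trends removed, 2 cytosolic members were higher, 3 mitochondrial members lower and 0 higher; the mitochondrial rise was also gone (0) without the filter and with DESeq2. Of other folding genes, 22 were lower with library totals. In set 2, 1 member was higher with DESeq2, and 1 to 2 on leaving out a library. Between the antibodies, 0 differences were below zero with library totals, and leaving out a library gave 1 to 2 below and 1 to 3 above zero. Signs turned for genes near 0, and the cause was not tested. For the antagonist, DNAJB4 reached 0.073 (totals), 0.013 (DESeq2) and 0.24 (length and GC), DNAJC17 -0.0048 (no filter) and -0.071 (length and GC), and DNAJC5 0.032 (totals). Leaving out a library, BAG3 ranged from -0.038 to 0.25, DNAJB4 from -0.069 to 0.11, DNAJC17 from -0.036 to 0.049 and HSPA6 from -0.0014 to 0.38. Differences between antibodies with totals were 0.048 for CCT3, 0.033 for DNAJB2, 0.077 for HSP90AB1, 0.089 for HSPA13 and 0.078 for HSPA4; leaving out a library they ranged from -0.13 to 0.0062 for DNAJB2, -0.051 to 0.015 for HSP90AB1, -0.057 to 0.11 for HSPA13, -0.049 to 0.033 for HSPA4 and -0.091 to 0.063 for HSPH1. No paired analysis was possible because the columns carry no replicate numbers, so the planned replicate block was not run. Depth limits statements on the 17 members below the filter.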
